A study of Homo sapiens with 6 samples.

Results

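Messenger RNA of 9 genes of cell adhesion was followed in HepG2-hCAR cells: the tensins TNS1, TNS3 and TNS4, and the focal adhesion adaptors and actin-binding proteins ZYX, VCL, PXN, TLN1, FLNA and TAGLN. The members were chosen by symbol, with their values in the contrast below already known. Their values and calls are therefore given as a description, with no p-value printed. The sums, shares and nearest genes drawn from these values are descriptions too. All 9 were among the 11461 listed entries, which represent 11456 symbols, and all 9 were among the 10469 genes tested. HepG2 is a human cell line from a liver tumour. HepG2-hCAR is 1 clone of it, grown from a single cell after lentiviral delivery of a cDNA of human CAR, the constitutive androstane receptor, under doxycycline control and after puromycin selection. Cells received doxycycline at 1 µg/ml (3 libraries) or vehicle (3 libraries) for 72 h, and both groups carried the inducible cDNA. Cells lacking the inducible cDNA were not given the antibiotic in this design, and a response to doxycycline itself cannot be told apart from a response to CAR.

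Focal adhesions join the extracellular matrix to the actin cytoskeleton. Integrins span the membrane, talin binds their tails and switches them to the active state, vinculin strengthens the link to actin, and paxillin and zyxin serve as scaffolds for kinases and for actin assembly. Tensins bind integrin tails through a C-terminal PTB domain, next to an SH2 domain. TNS1, TNS2 and TNS3 also carry N-terminal regions that bind actin, which the shorter TNS4 (also called CTEN) lacks.

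CAR is the product of NR1I3, and NR1I3 mRNA averaged 321 ± 8.51 FPKM in doxycycline cells and 3.24 ± 0.290 FPKM in vehicle cells (mean ± SD of n = 3 libraries in each group, here and below). FPKM are fragment numbers that the authors divided by transcript length and by the mapped total of each library, so levels are per length and can be set side by side between genes. Per library the listed values summed to 204318 to 209372 FPKM. Sequencing depth is unknown. Nothing in the labels tells if the replicates were grown as separate cultures, and if they were not, the p-values cover the spread of these samples alone, which may be technical. All 10 hepatocyte markers looked up were listed, with a summed level of 821 to 831 FPKM in doxycycline cells against 1940 to 2099 FPKM in vehicle cells, and 7 of them fell.

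TNS4 and TAGLN were the members that differed most. TNS4 was 8.59-fold higher and TAGLN 2.73-fold higher in doxycycline cells, and FLNA was 1.13-fold higher. These 3 of the 9 members were called, that is, passed an adjusted p below 0.05 in limma fitted across all genes on log2(FPKM + 1), and none was called lower. Of all genes tested 28.8% were called, 15.2% higher and 13.6% lower, and nothing is read from the members' count beside that share, because the members were chosen on this contrast. The median log2 fold change was 0.22 over the 9 members and 0.01 over all genes tested. In 5 of the 9 members the groups did not overlap, 4 with doxycycline higher and 1 with doxycycline lower, where 47.1% of all genes tested did not overlap, 24.8% with doxycycline higher and 22.3% with doxycycline lower. In bulk RNA, fewer cells expressing a gene and less RNA per cell cannot be told apart.

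**Figure D1:**
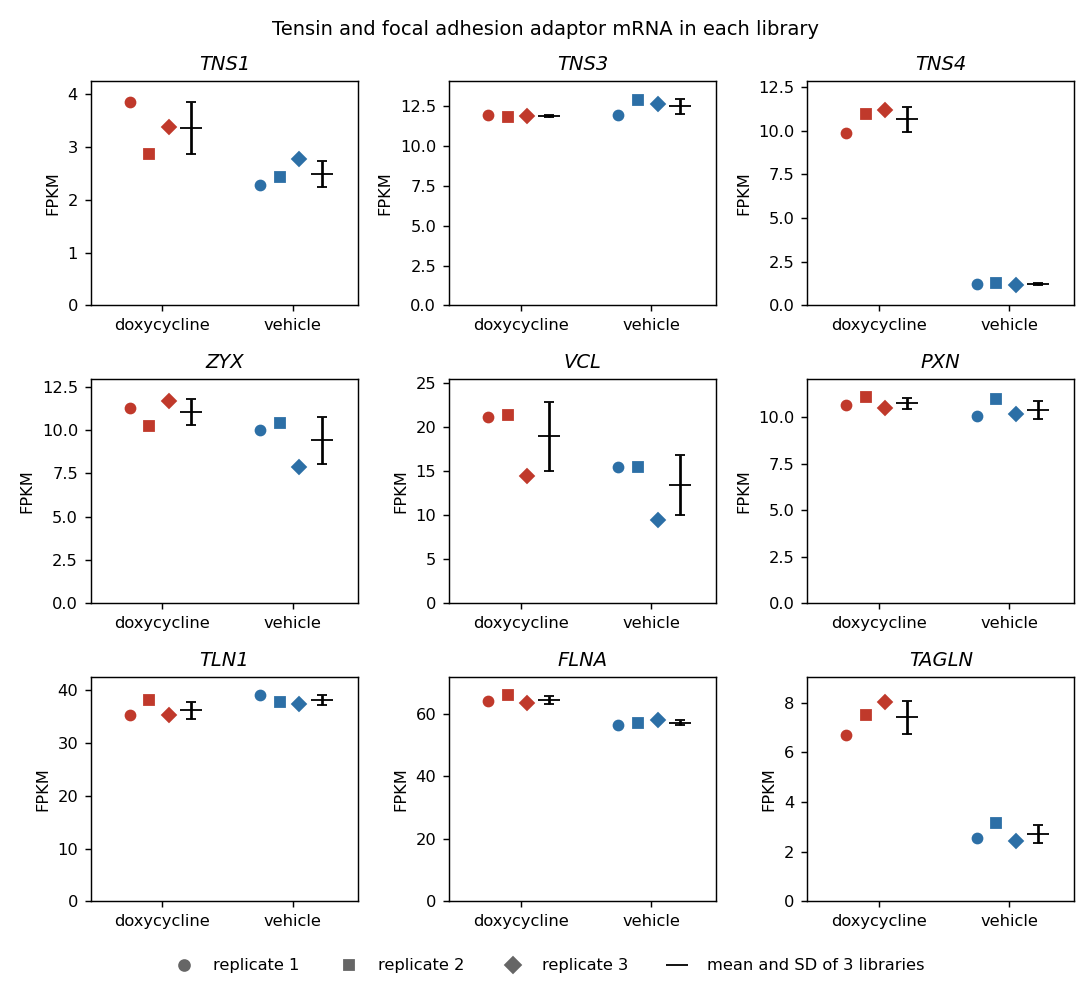
FPKM of each member (y axis, starting at 0) in the 3 doxycycline and the 3 vehicle libraries, with marker shape for the replicate number and a black bar for mean and SD. TNS4 and TAGLN stand clear of vehicle in every doxycycline library, while TNS3, PXN and TLN1 lie close together in both groups.

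TNS4 (ENSG00000131746) lies on the minus strand of chromosome 17, at 38632080 to 38657849 of GRCh37, the build named for these files. Its level was 9.85, 10.9 and 11.2 FPKM in the doxycycline libraries, against 1.22, 1.31 and 1.19 FPKM in the vehicle libraries. The groups were far apart, and the spread within each group was small beside the difference. The mean was 10.7 ± 0.714 FPKM in doxycycline cells and 1.24 ± 0.0597 FPKM in vehicle cells, with a log2 fold change of 2.38 (SE 0.06). Among the 11456 symbols, its mean level was at or above that of 67.9% in doxycycline cells and 11.8% in vehicle cells. It was the lowest of the 9 members in vehicle cells and seventh in order in doxycycline cells, where its libraries overlapped in range with those of PXN.

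TNS3, an integrin-binding tensin with an actin-binding N terminus (chromosome 7, 47314752 to 47622156, minus strand), was the most abundant tensin in both groups. It stood at 11.95, 11.78 and 11.89 FPKM in the doxycycline libraries, against 11.95, 12.88 and 12.62 FPKM in the vehicle libraries. The groups met at 11.95 FPKM, with doxycycline 1 just under vehicle 1. The log2 fold change was -0.07 (SE 0.04), and the gene was not called.

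TNS1, a tensin of fibrillar adhesions (chromosome 2, 218664512 to 218867718, minus strand), was at 3.85, 2.86 and 3.37 FPKM in the doxycycline libraries, against 2.28, 2.44 and 2.76 FPKM in the vehicle libraries. Every doxycycline library was above every vehicle library, but the gap between the nearest of them was small beside the spread within doxycycline. The means were 3.36 ± 0.493 and 2.49 ± 0.248 FPKM in doxycycline and vehicle cells, with a log2 fold change of 0.32 (SE 0.10). TNS1 was not called with all libraries, and was called without doxycycline replicate 2, the lowest of its group, at a log2 fold change of 0.40.

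The fourth tensin, TNS2, is not a member. TNS2 averaged 3.25 ± 0.108 FPKM in doxycycline cells and 3.05 ± 0.0912 FPKM in vehicle cells (limma log2 fold change 0.07, adjusted p = 0.342). The 4 tensins summed to 28.9, 28.9 and 29.6 FPKM in the doxycycline libraries, against 18.6, 19.6 and 19.6 FPKM in the vehicle libraries. TNS4 made up 95.4% of that difference in mean level. TNS4 was 36.6% ± 2.13 of the tensin sum in doxycycline cells and 6.43% ± 0.298 in vehicle cells, and TNS3 was 40.8% ± 0.608 of it in doxycycline cells and 64.8% ± 0.711 in vehicle cells.

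**Figure D2:**
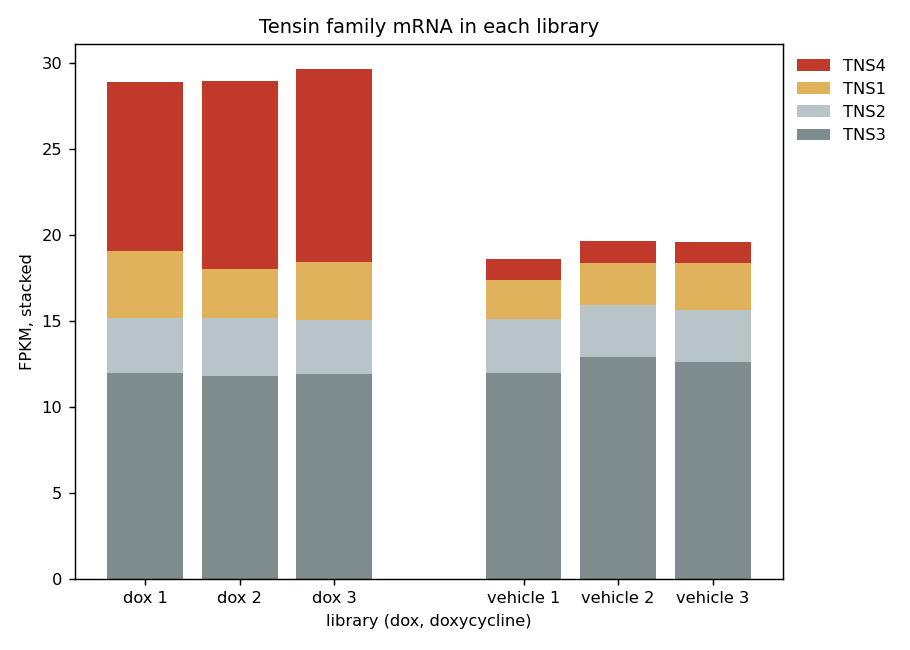
Stacked FPKM of the 4 tensins (y axis) in each library, doxycycline left and vehicle right. The TNS4 segment is the one that differs visibly between groups, while the TNS3 segment spans 11.78 to 12.88 over all libraries.

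By the root mean square difference of centred log2(FPKM + 1) over the 6 libraries, the genes whose pattern was closest to that of TNS4 were ISM1 (0.14), LOXL4 (0.15) and ANGPTL1 (0.16). ISM1 encodes a secreted protein and stood at 11.04 ± 0.854 FPKM in doxycycline cells and 1.69 ± 0.210 FPKM in vehicle cells. LOXL4, a lysyl oxidase that crosslinks matrix, stood at 15.3 ± 0.0565 FPKM in doxycycline cells and 2.71 ± 0.266 FPKM in vehicle cells. The closest to TNS1 were RAB21 (0.047), ZNF746 (0.051) and FAM104A (0.054), and the closest to TNS3 were VKORC1L1 (0.010), DIMT1 (0.013) and ZFC3H1 (0.014). With 6 libraries in 2 groups, such closeness mostly restates a like difference between the groups.

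TAGLN encodes transgelin (SM22), a calponin-related protein that binds actin and is abundant in smooth muscle. It lies on the plus strand of chromosome 11, at 117070037 to 117075498. Its level was 6.69, 7.50 and 8.02 FPKM in the doxycycline libraries, against 2.56, 3.14 and 2.45 FPKM in the vehicle libraries. The lowest doxycycline library was above the highest vehicle library by more than the range within either group. The means were 7.41 ± 0.671 and 2.72 ± 0.371 FPKM in doxycycline and vehicle cells, and the log2 fold change was 1.18 (SE 0.09). PCSK7, which overlaps TAGLN on the opposite strand, averaged 1.53 ± 0.214 FPKM in doxycycline cells and 1.14 ± 0.0736 FPKM in vehicle cells. The libraries keep strand, but whether the authors' counting used it is not given in the sources used here.

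Because TAGLN marks smooth muscle and some fibroblasts, markers of other cell types were set beside it. Of 6 smooth muscle markers, SMTN and SYNM were listed, with a sum of 6.37 to 7.31 FPKM in doxycycline cells against 5.97 to 6.73 FPKM in vehicle cells, and neither was called. Of 8 fibroblast or stellate cell markers only PDGFRB was listed, at 1.40 to 1.47 FPKM in doxycycline cells against 0.798 to 0.966 FPKM in vehicle cells, and it rose. The other markers of both lists, MYH11, DES, COL1A1 and COL1A2 among them, were looked up and not listed. None of the 5 endothelial markers was listed either. Every listed entry had a mean of at least 0.50 FPKM in 1 group or both, and levels of unlisted genes are not known here. Of 4 bile duct markers 3 were listed, with a sum of 264 to 267 FPKM in doxycycline cells against 239 to 248 FPKM in vehicle cells, of which 1 rose and 2 fell. Of 4 leukocyte markers 3 were listed, with a sum of 263 to 277 FPKM in doxycycline cells against 544 to 586 FPKM in vehicle cells, nearly all of it LYZ. Both tested members of that list, LYZ and CD68, fell, while CD14, below the minimum for the test, was at 1.85 to 2.00 FPKM in doxycycline cells against 0.0347 to 0.0853 FPKM in vehicle cells. The part of these markers in the TAGLN difference was not tested.

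FLNA, filamin A, crosslinks actin filaments and competes with talin for integrin tails. It lies on the minus strand of chromosome X, at 153576892 to 153603006 of GRCh37, and was the most abundant member in both groups. Its level was 64.0, 66.0 and 63.4 FPKM in the doxycycline libraries, against 56.3, 57.2 and 58.0 FPKM in the vehicle libraries. The doxycycline libraries were all above the vehicle libraries, by 12.8% on average, and the log2 fold change was 0.17 (SE 0.03).

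Windows from 250 bases before to 50 bases after a gene's start were read from RefSeq (GRCh38.p14) for 7 of the 9 members, 14 windows in all since some genes have several starts, and none was read for TNS4 or TAGLN. They were searched on both strands for the CArG box, which SRF binds, for TGANTCA, bound by AP-1, for GGAATG, bound by TEAD factors, and for AGGTCA, a half-site of nuclear receptors. These motifs do not overlap one another in the matches found. The CArG box was in the window of FLNA and in no window of the other 6 members, and 1.29% of all 35116 windows held it. GGAATG was in 4 of the 14 windows, which belong to TNS1, VCL and PXN (14.0% of all windows). AGGTCA was in 3 of the 14, which belong to TNS1 and TNS3 (13.8% of all windows), and TGANTCA in none of the 14 (7.71% of all windows). The FLNA sequence is shown because FLNA is the only called member with a window read here and the only member with a CArG box in one. It covers the 120 bases before the start, chrX:154374635-154374754 of GRCh38.p14, minus strand, written 5′ to 3′ with the CArG box in capitals. A match is a description of letters and not of a bound site.
FLNA: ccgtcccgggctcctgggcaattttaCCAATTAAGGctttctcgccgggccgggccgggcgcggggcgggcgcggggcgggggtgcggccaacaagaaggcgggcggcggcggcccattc

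The core linkers talin and vinculin did not pass the threshold. TLN1, talin 1 (chromosome 9, 35696945 to 35732392, minus strand), was at 35.2, 38.0 and 35.2 FPKM in the doxycycline libraries, against 39.1, 37.7 and 37.3 FPKM in the vehicle libraries. The groups overlapped through doxycycline 2, and the log2 fold change was -0.07 (SE 0.04). TLN1 was the second most abundant member in both groups, and it supplied 97.2% ± 0.0386 of the talin sum in doxycycline cells and 97.6% ± 0.0639 in vehicle cells, the rest being TLN2.

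VCL, vinculin (chromosome 10, 75754951 to 75881121, plus strand), had the widest spread among the members. Its level was 21.1, 21.4 and 14.4 FPKM in the doxycycline libraries, against 15.5, 15.5 and 9.53 FPKM in the vehicle libraries. Replicate 3 was the low library in each group, and the low doxycycline library lay below the high vehicle libraries, so the groups overlapped. The means were 18.99 ± 3.95 and 13.5 ± 3.43 FPKM in doxycycline and vehicle cells, with a log2 fold change of 0.47 (SE 0.23). Without vehicle replicate 3 the log2 fold change was 0.26, and without doxycycline replicate 3 it was 0.65. VCL was not called in either case.

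The scaffolds PXN and ZYX were not called. PXN, paxillin (chromosome 12, 120648242 to 120703574, minus strand), was at 10.7, 11.1 and 10.5 FPKM in the doxycycline libraries, against 10.1, 10.98 and 10.2 FPKM in the vehicle libraries. The ranges overlapped, with a log2 fold change of 0.05 (SE 0.05). Its relative TGFB1I1 (HIC-5), with a mean below the minimum of 1 FPKM set for the test, was at 1.35 ± 0.154 FPKM in doxycycline cells and 0.573 ± 0.0626 FPKM in vehicle cells, a gene chosen after its values were seen. ZYX, zyxin (chromosome 7, 143078173 to 143088204, plus strand), was at 11.3, 10.2 and 11.7 FPKM in the doxycycline libraries, against 9.99, 10.4 and 7.87 FPKM in the vehicle libraries. Doxycycline 2 lay below vehicle 2, and vehicle 3 was the low library. The log2 fold change of ZYX was 0.22 (SE 0.11), and it was 0.11 without vehicle replicate 3. ZYX was not called in either case.

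By mean level the order in doxycycline cells was FLNA, TLN1, VCL, TNS3, ZYX, PXN, TNS4, TAGLN and TNS1, in which the ranges of ZYX, PXN and TNS4 overlapped from each to the next. In vehicle cells the order was FLNA, TLN1, VCL, TNS3, PXN, ZYX, TAGLN, TNS1 and TNS4, in which VCL overlapped TNS3, PXN overlapped ZYX and TAGLN overlapped TNS1. The 9 members together summed to 174.7 ± 5.03 FPKM in doxycycline cells and 147.4 ± 4.96 FPKM in vehicle cells. Of that difference of 27.3 FPKM, TNS4 made up 34.5%, FLNA 26.8%, VCL 20.2% and TAGLN 17.2%.

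Close relatives of the members were listed by protein family, with earlier results of these data known. Of 17 such genes 12 were listed and 9 tested, of which 2 rose and none fell, with a median log2 fold change of -0.01. TAGLN2, the transgelin of non-muscle cells, was at 21.3, 24.4 and 23.4 FPKM in the doxycycline libraries, against 11.8, 11.0 and 10.1 FPKM in the vehicle libraries, with no overlap. It rose 2.10-fold (limma log2 fold change 1.01, SE 0.07, adjusted p = 2.35e-04). LIMD1, a LIM protein of the zyxin family, rose to 2.64 ± 0.0669 FPKM in doxycycline cells, against 2.01 ± 0.0954 FPKM in vehicle cells (limma adjusted p = 0.0089). CNN3, the calponin with the highest level, was at 54.4 ± 0.314 FPKM in doxycycline cells and 58.0 ± 2.09 FPKM in vehicle cells and was not called (limma adjusted p = 0.0895), but leaving out vehicle replicate 1 made it a lower call (adjusted p = 0.0492, in a span of 0.0492 to 0.207 for all alternatives).

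**Figure D3:**
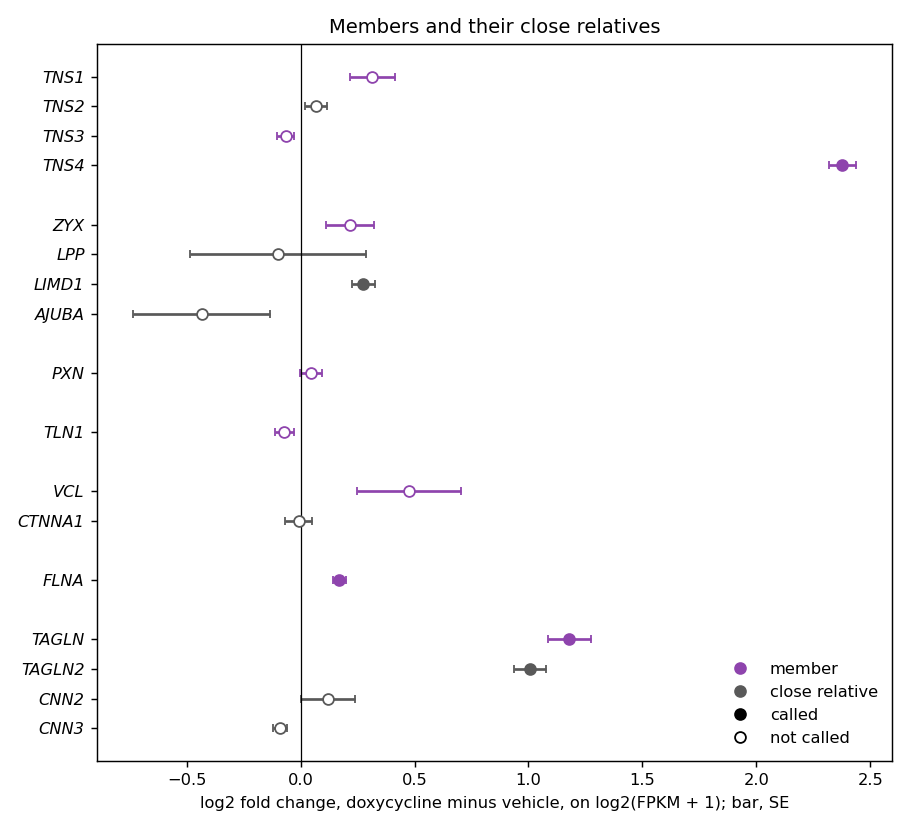
Log2 fold change, doxycycline minus vehicle, with SE (x axis) for the members and tested close relatives, grouped by family, with filled points for called genes. TNS4 is at 2.38 while the other tensins lie between -0.07 and 0.32, and TAGLN and TAGLN2 lie side by side at 1.18 and 1.01.

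Over all partner lists 126 genes were looked up, 104 were listed and 92 tested, of which 22 rose and 11 fell (35.9% called, beside 28.8% of all genes tested), with a median log2 fold change of 0.07. Of the 12 listed but untested genes, PTK2B, CASS4, SORBS2 and PDLIM2 had lower means in doxycycline cells. The others, TGFB1I1 among them, had higher means. SORBS2, chosen after its values were seen, was at 0.116 ± 0.0307 FPKM in doxycycline cells and 0.770 ± 0.147 FPKM in vehicle cells. Among genes of integrin activation and of the ILK complex, which holds the kinase-like ILK, parvins and PINCH proteins at integrin tails, 2 of 11 tested genes rose and 1 fell, with a median of 0.19. FBLIM1 (migfilin), which links filamin to kindlin, rose to 20.7 ± 0.970 FPKM in doxycycline cells, against 10.2 ± 0.623 FPKM in vehicle cells (limma adjusted p = 1.14e-04). PARVA, the actin-binding alpha-parvin, rose to 6.30 ± 0.375 FPKM in doxycycline cells, against 3.70 ± 0.0279 FPKM in vehicle cells (limma adjusted p = 4.16e-04). KANK1, which binds talin at the rim of adhesions, fell to 18.8 ± 0.656 FPKM in doxycycline cells, against 21.2 ± 0.784 FPKM in vehicle cells (limma adjusted p = 0.0356), a call that ended without vehicle replicate 1 or 2 or doxycycline replicate 1 or 3 (range over the alternatives 0.0283 to 0.102). ILK was at 18.1 ± 0.932 FPKM in doxycycline cells and 18.1 ± 0.162 FPKM in vehicle cells. The kindlin FERMT1 was at 25.9 ± 4.66 FPKM in doxycycline cells and 17.6 ± 3.60 FPKM in vehicle cells, not called (limma adjusted p = 0.0722, range over the alternatives 0.0366 to 0.183). It was called when doxycycline replicate 3 (adjusted p = 0.0366) or vehicle replicate 2 (adjusted p = 0.0379) was left out.

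Of 16 tested kinases and scaffolds of adhesions 3 rose and 2 fell, with a median of 0.04. The kinase SRC rose to 28.4 ± 0.745 FPKM in doxycycline cells, against 22.0 ± 0.210 FPKM in vehicle cells (limma adjusted p = 5.81e-04). CSK, the kinase that inhibits SRC, was at 10.8 ± 0.145 FPKM in doxycycline cells and 11.9 ± 0.0486 FPKM in vehicle cells (limma adjusted p = 0.0288), a call that was lost without any 1 of the 6 libraries (range over the alternatives 0.0224 to 0.0821). CRKL, an adaptor that binds phosphorylated paxillin, and DOCK1, a RAC activator, had log2 fold changes of -0.15 and 0.16, and their calls also ended without single libraries (vehicle 1, 2 or 3 and doxycycline 2 or 3 for CRKL, at adjusted p 0.0519 to 0.0769, vehicle 1 and doxycycline 1, 2 or 3 for DOCK1, at 0.0508 to 0.0612). The remaining gene of the 3, NEDD9, a scaffold related to p130Cas that was chosen after its values were seen, was at 32.9 ± 0.942 FPKM in doxycycline cells and 30.1 ± 0.888 FPKM in vehicle cells (limma adjusted p = 0.0476). Its call ended with median-ratio scaling, without the variance trend and without any 1 library except replicate 2 of either group (range over the alternatives 0.0406 to 0.13). CRK was at 17.5, 29.7 and 17.8 FPKM in the doxycycline libraries, against 16.4, 15.9 and 15.3 FPKM in the vehicle libraries, with doxycycline 2 alone far above the rest, and was not called. PTPN12, a phosphatase of adhesion proteins, was at 23.5 ± 2.70 FPKM in doxycycline cells and 22.6 ± 0.492 FPKM in vehicle cells.

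Of 17 tested genes of actin assembly and crosslinking at adhesions 6 rose and 3 fell, with a median of 0.01. ENAH (Mena), which extends actin filaments and binds zyxin, rose 1.82-fold, to 10.7 ± 0.395 FPKM in doxycycline cells, against 5.89 ± 0.359 FPKM in vehicle cells (limma adjusted p = 2.38e-04). SVIL, supervillin, rose to 15.8 ± 0.789 FPKM in doxycycline cells, against 10.1 ± 0.596 FPKM in vehicle cells, and ACTN1, alpha-actinin 1, to 29.3 ± 0.977 FPKM in doxycycline cells, against 19.7 ± 0.906 FPKM in vehicle cells. SORBS3, vinexin, which binds vinculin, fell to 4.25 ± 0.189 FPKM in doxycycline cells, against 7.07 ± 1.28 FPKM in vehicle cells (limma adjusted p = 0.0121). PDLIM1, chosen after its values were seen, also fell, to 72.9 ± 1.63 FPKM in doxycycline cells, against 87.6 ± 6.59 FPKM in vehicle cells. The PDLIM1 call (limma adjusted p = 0.0176) ended without doxycycline replicate 1 or 2 (range over the alternatives 0.0155 to 0.0585). The abundant ACTN4 was at 90.6 ± 7.94 FPKM in doxycycline cells and 92.0 ± 11.8 FPKM in vehicle cells, and profilin 1 (PFN1) at 189 ± 6.26 FPKM in doxycycline cells and 178 ± 7.27 FPKM in vehicle cells, neither of them called, though PFN1 was called higher after quantile normalization.

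Of 24 tested genes of contractility control and myosin 5 rose and 4 fell, with a median of 0.08. ARHGAP5, a GTPase-activating protein, rose 2.05-fold, to 26.4 ± 1.02 FPKM in doxycycline cells, against 12.9 ± 3.26 FPKM in vehicle cells (limma adjusted p = 0.00804). MYL9, a myosin regulatory light chain, rose to 13.9 ± 1.05 FPKM in doxycycline cells, against 8.10 ± 0.548 FPKM in vehicle cells. MYLK, the kinase of that light chain, fell to 0.628 ± 0.102 FPKM in doxycycline cells, against 1.66 ± 0.0310 FPKM in vehicle cells, and ARHGAP26, a RHOA inhibitor that binds the adhesion kinase FAK, to 2.12 ± 0.129 FPKM in doxycycline cells, against 3.84 ± 0.438 FPKM in vehicle cells. RHOA itself was at 67.6 ± 0.834 FPKM in doxycycline cells and 68.5 ± 0.653 FPKM in vehicle cells, and ROCK2 at 43.1 ± 1.22 FPKM in doxycycline cells and 46.4 ± 1.03 FPKM in vehicle cells, neither of them called, though ROCK2 was called lower after quantile normalization. The non-muscle myosin heavy chains, chosen after their values were seen, moved in opposite directions: MYH9 rose to 94.1 ± 1.27 FPKM in doxycycline cells, against 82.0 ± 2.23 FPKM in vehicle cells, and MYH10 fell to 24.5 ± 0.434 FPKM in doxycycline cells, against 33.0 ± 0.387 FPKM in vehicle cells. Chosen in the same way, the light chain MYL12B rose to 69.8 ± 1.28 FPKM in doxycycline cells, against 59.3 ± 1.26 FPKM in vehicle cells, and LIMK2, a kinase that inactivates cofilin, fell to 4.20 ± 0.104 FPKM in doxycycline cells, against 5.46 ± 0.237 FPKM in vehicle cells. RHOB, the last of the 5 that rose, was at 62.9 ± 5.67 FPKM in doxycycline cells and 52.0 ± 3.15 FPKM in vehicle cells (limma adjusted p = 0.0443), a call that ended without the variance trend and without any 1 library except doxycycline replicate 2 (range over the alternatives 0.0117 to 0.12).

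SRF is a transcription factor of cytoskeletal genes and MRTF its actin-controlled coactivator, and TAGLN, VCL, ZYX and FLNA are known SRF targets in other cells. Of 15 tested genes of SRF, MRTF and contractile targets 4 rose and 1 fell (33.3% called, beside 28.8% of all genes tested), with a median of 0.23. The contractile targets TPM1, TPM2, TPM3, TPM4, FHL2 and CALD1, chosen after their values were seen, were not called with all libraries. TPM2 and CALD1 had lower means in doxycycline cells and the others higher means. CALD1 was at 17.7 ± 5.82 FPKM in doxycycline cells and 26.2 ± 1.11 FPKM in vehicle cells, with no overlap. ANKRD1, a muscle ankyrin repeat protein that YAP also drives, rose 3.52-fold, to 131, 130.3 and 134.6 FPKM in the doxycycline libraries, against 35.0, 37.5 and 40.0 FPKM in the vehicle libraries (limma log2 fold change 1.79, adjusted p = 1.15e-05). The matricellular genes CTGF, at 55.8 ± 2.09 FPKM in doxycycline cells and 41.1 ± 1.87 FPKM in vehicle cells, and CYR61, at 7.61 ± 0.420 FPKM in doxycycline cells and 5.33 ± 0.494 FPKM in vehicle cells, rose too (limma adjusted p = 0.00109 and 0.00633). MKL1 (MRTFA) was at 4.30 ± 0.521 FPKM in doxycycline cells and 3.09 ± 0.201 FPKM in vehicle cells (limma adjusted p = 0.0228), a call that ended without vehicle replicate 2 or 3 or doxycycline replicate 1 or 3 (adjusted p 0.0624 to 0.071). ACTA2, the smooth muscle actin and the 1 gene of the list called lower, was chosen after its values were seen. It was at 16.4 ± 0.780 FPKM in doxycycline cells and 18.6 ± 0.668 FPKM in vehicle cells (limma adjusted p = 0.0393), and its call ended without any 1 of the 6 libraries (range over the alternatives 0.032 to 0.107). The actin genes ACTB, at 348 ± 15.3 FPKM in doxycycline cells and 354 ± 2.64 FPKM in vehicle cells, and ACTG1, at 123 ± 12.2 FPKM in doxycycline cells and 117 ± 3.31 FPKM in vehicle cells, were not called, though ACTB was higher and called after quantile normalization and ACTG1 without doxycycline replicate 1.

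**Figure D4:**
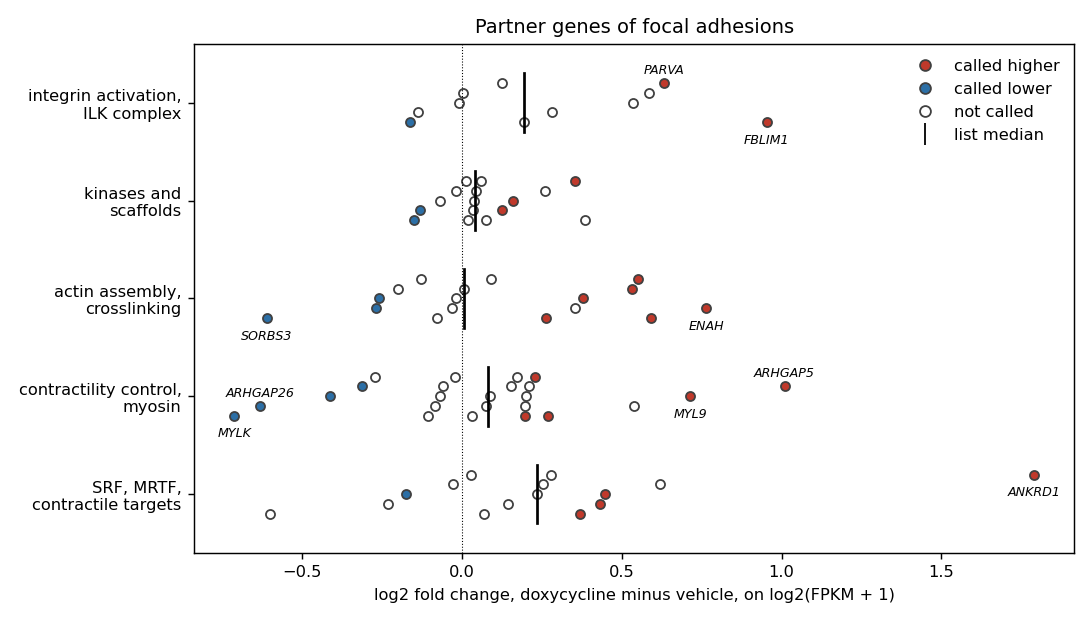
Log2 fold change, doxycycline minus vehicle (x axis), of each tested partner gene in 5 role lists, coloured by its call, with a black bar for the list median. Each list holds called genes on both sides of 0, and ANKRD1 lies farthest out at 1.79.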

How the data were processed

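The 6 libraries were made, per the labels' protocols, from poly(A)-selected RNA with a strand-specific kit. The authors deposited FPKM, 1 column per library, and per the submitters' processing notes reads went through StringTie, HISAT2, cutadapt and FastQC, listed without order or versions, with the build GRCh37. Every symbol was represented by its entry with the highest mean (5 symbols had several). Genes with a mean of at least 1 FPKM were tested on log2(FPKM + 1) with limma 3.58.1 (R 4.3.3), with group as the only term and a variance trend, two-sided, with Benjamini-Hochberg adjustment over 10469 genes and a threshold of 0.05. A fold is a ratio of mean FPKM, and a log2 fold change, on log2(FPKM + 1), understates the change of low genes. The procedure was tested on simulated data, with independent errors and far fewer changed genes than were called here. Members and lists were chosen with earlier results of these data known. From each partner list the text names up to 4 called genes of largest change and up to 2 uncalled genes of highest level, and it says where others were chosen after their values were seen. A few genes that the rule or the counts include are not reported here by name. Symbols are those of the table, which lists MRTFA as MKL1, CCN1 as CYR61 and CCN2 as CTGF. The 16 alternatives changed the pseudocount, the filter, the scaling, the moderation, a block on replicate number or the handling of symbols with several entries, or left out 1 library. Figures were drawn with matplotlib 3.10.9.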

Additional observations from a re-analysis of the deposited data

How the results depend on the processing

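TNS4, TAGLN and FLNA stayed called in all 16 alternatives, and the other 6 members stayed uncalled except VCL with the replicate block and TNS1 without doxycycline replicate 2. Because the members were chosen on this contrast, these calls too are a description. Same-numbered libraries did not deviate together (correlation of deviations over genes 0.015, -0.032 and 0.092 for numbers 1, 2 and 3, and not every library correlated best with its own number), so the replicate block (2343 genes, 4 members and 28 partner genes called) was not taken as a pairing. The calls of DOCK1, CRKL, CSK, MKL1, NEDD9 and ACTA2 ended with it. Leaving out 1 library gave 2309 to 2376 genes called, 3 to 4 members, and 27 to 31 partner genes, 7 to 9 of them lower against 11 with all libraries. That last count was 7 without vehicle replicate 2. Among the genes named by the rule, the sign of small differences that were not called turned for ILK (-0.0040 with median-ratio scaling, -0.010 with quantile normalization, -0.034 to 0.034 leaving out 1 library), ACTN4 (0.038 with quantile normalization, -0.13 to 0.042 leaving out 1 library), PTPN12 (-0.016 to 0.14 leaving out 1 library) and ACTB (0.21 with quantile normalization), and it also turned for other uncalled partner genes, LPP and CTNNA1 among them. The depth of the libraries is unknown, so counting error could not be given.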
